A study of Mus musculus with 16 samples.

Results

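MHC class I and class II antigen presentation is described here through 10 genes of the liver transcriptome, H2-K1, H2-D1, B2m, Tap1, Tap2, H2-Aa, H2-Ab1, H2-Eb1, Cd74 and Ciita. They were taken as the rows of the deposited expression table whose gene symbol equals one of these names. All 10 were found, each in 1 row, among 30199 genes in the table. The question asked of them is how their messenger RNA stood in livers that carried a heterozygous deletion of Ncoa5, of Tip30 or of both.

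In livers carrying the Ncoa5 deletion, with or without the Tip30 deletion, 8 of the 10 genes rose against the livers without it, where 3.94% of the 15263 tested genes did. The count depended on the livers used. It was 4 without the 4 livers low in the gene Zhx2, described below. Among mice whose label number was under 4300 it was 8, and among those at 4300 and over it was 0. Calls over all genes moved too, from 602 higher with all livers to 405, 714 and 30 in these settings, in the same order. Class I chains and B2m were higher by 0.34 to 0.43 on the log2 scale, the peptide transporter gene Tap1 by 0.82, and the class II chains with Cd74 by 0.78 to 0.94. Tap2 and Ciita did not pass the test. Livers with the Tip30 deletion alone showed no member past the test against wild type, where 0.0131% of tested genes passed.

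MHC class I molecules are carried by nearly all nucleated cells. They consist of a heavy chain, here H2-K1 or H2-D1, and the light chain B2m, and they show peptides of cytosolic proteins to CD8 T cells. The proteasome cuts these peptides, and the transporter formed by Tap1 and Tap2 moves them into the endoplasmic reticulum, where they are loaded. MHC class II molecules are paired alpha and beta chains, here H2-Aa with H2-Ab1, and H2-Eb1, whose alpha partner is H2-Ea. They are held in the healthy body mainly by B cells, dendritic cells and macrophages, and they show peptides from the endosome to CD4 T cells. Cd74, the invariant chain, fills the groove of new class II molecules, and Ciita is the coactivator that switches class II genes on. Interferon-gamma raises genes of both classes, and Nlrc5 is the class I counterpart of Ciita. In the liver, Kupffer cells, the resident macrophages, and sinusoidal endothelium are known to present antigen.

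The groups were Ncoa5+/-Tip30+/-, Ncoa5+/-, Tip30+/- and wild type, all female mice aged 5 months with 4 mice each, and each mouse gave 1 library from a piece of frozen liver. Ncoa5 encodes a nuclear receptor coactivator and Tip30, listed as Htatip2, an enzyme-like protein known as a tumour suppressor. The strain, and any allele beyond these deletions, were not stated for these mice. The libraries held 24740706 to 37939978 reads assigned to genes. Htatip2 was at 837 to 1088 normalized counts in Ncoa5+/-Tip30+/- livers and 685 to 986 in Tip30+/- livers, against 2066 to 2910 in Ncoa5+/- and 1835 to 2209 in wild-type livers. Ncoa5 itself stood at 369 to 424 normalized counts in Ncoa5+/-Tip30+/- livers and 339 to 411 in Ncoa5+/- livers, against 382 to 450 in Tip30+/- and 380 to 480 in wild-type livers, so that the Ncoa5 genotype rests on the labels. The labels call the tissue mainly hepatocyte, and the hepatocyte marker Alb was at 1289684 to 2291905 normalized counts. Markers of B cells, dendritic cells, Kupffer cells, T cells and other cells were detected as well. In such bulk tissue, fewer cells of a type and less RNA per cell cannot be told apart.

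Zhx2, a transcriptional repressor whose liver level is known to differ between mouse strains, separated 4 livers from the rest. It was at 13.5 and 8.77 normalized counts in Ncoa5+/- 1 and 4 and at 19.4 and 26.3 in wild type 1 and 2, and the other 12 livers held 167 to 438. No Ncoa5+/-Tip30+/- or Tip30+/- liver was low. Counts of members called without these 4 livers are given beside the counts below.

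The promoters of the class I and class II chains and of B2m are known for a shared layout of short boxes. These are read by the RFX, CREB and NF-Y factors that recruit Nlrc5 or Ciita. RefSeq windows of 250 bases before the start, on GRCm38.p6, were found for 6 of the 10 genes (H2-K1, H2-D1, B2m, Tap1, H2-Aa and H2-Eb1). The windows of H2-K1, B2m, H2-Aa and H2-Eb1 are shown because they place the boxes of a heavy chain, the light chain and both kinds of class II chain beside each other. Each is written 5′ to 3′ on the strand of its gene, and capitals mark the motifs searched on both strands. These were CCAAT, which reads ATTGG on the other strand, the motif TGACG, and the motif GAANNGAAA. In H2-K1, capitals show the last of these in its reverse form. The B2m window stops at 249 bases, before the annotated exon.
H2-K1 chr17:34000348-34000597 (- strand): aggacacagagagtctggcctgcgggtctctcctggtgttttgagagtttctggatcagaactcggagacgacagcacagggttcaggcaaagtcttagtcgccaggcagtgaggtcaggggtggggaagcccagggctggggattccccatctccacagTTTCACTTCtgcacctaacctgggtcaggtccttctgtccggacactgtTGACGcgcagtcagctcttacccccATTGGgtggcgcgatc
B2m chr2:122147437-122147685 (+ strand): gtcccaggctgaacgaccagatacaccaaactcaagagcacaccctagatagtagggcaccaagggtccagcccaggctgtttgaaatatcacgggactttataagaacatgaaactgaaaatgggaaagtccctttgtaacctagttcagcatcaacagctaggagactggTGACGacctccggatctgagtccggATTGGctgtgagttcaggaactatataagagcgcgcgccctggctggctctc
H2-Aa chr17:34287824-34288073 (- strand): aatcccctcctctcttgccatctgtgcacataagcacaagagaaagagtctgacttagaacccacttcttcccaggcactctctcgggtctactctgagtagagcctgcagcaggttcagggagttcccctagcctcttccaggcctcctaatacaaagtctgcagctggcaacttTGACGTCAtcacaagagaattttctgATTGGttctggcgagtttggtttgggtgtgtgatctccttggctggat
H2-Eb1 chr17:34305617-34305866 (+ strand): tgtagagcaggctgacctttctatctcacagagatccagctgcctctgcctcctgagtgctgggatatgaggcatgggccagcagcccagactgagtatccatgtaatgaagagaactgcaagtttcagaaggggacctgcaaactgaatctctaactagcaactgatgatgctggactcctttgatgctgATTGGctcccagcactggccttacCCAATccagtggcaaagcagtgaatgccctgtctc
CCAAT, the core bound by NF-Y, was in all 6 windows and in 33.8% of all 32851 RefSeq windows of this length. TGACG, the core of the cyclic AMP response element, was in all of the 6 but H2-Eb1, against 17.8% of all windows. In H2-Aa it matched on both strands, and these matches overlap. GAANNGAAA, an interferon response element, was found in H2-K1 and H2-D1, against 6.31% of all windows. These matches are descriptions of letters and not binding sites.

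In 4 of the 6 windows TGACG was followed by ATTGG on the strand of the gene at nearly the same distance. The starts of the 2 boxes lay 25 bases apart in H2-K1, H2-D1 and B2m and 26 bases apart in H2-Aa. A pair at one of these distances was found in 27 of the 32851 windows (0.0822%), which belong to 24 gene symbols. Besides the 4 members, H2-M3, a nonclassical class I gene, was among these symbols. The distances searched were taken from the members, whose own windows are among the 27, so this share is a description and not a test. ATTGG began 16 bases before the RefSeq start in H2-K1, 76 in H2-D1, 53 in B2m and 48 in H2-Aa. The RefSeq start of H2-D1 lies 364 bases inside the gene span given for it below, so its window falls within that span. For the other windows the 2 starts lie at most 3 bases apart. The windows of H2-K1 and H2-D1 aligned over 177 bases, of which 161 were identical (91.0%).

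Levels were set per kilobase of exon, so that genes can be roughly compared. The length counted every base in any annotated exon of a gene, which was 3798 for H2-Aa and 2568 for H2-Ab1. Annotated exons that are not used in liver would lower a gene on this scale, so close ranks are uncertain. B2m had the highest level, with a median of 34080 normalized counts per kb over the 16 livers. H2-D1 followed at 7424 and H2-K1 at 4369 normalized counts per kb. The class II genes were lower, with medians of 855 for Cd74, 524 for H2-Eb1, 493 for H2-Ab1 and 181 for H2-Aa, all per kb. Of the transporter genes, Tap2 stood at 230, among the class II genes, and Tap1 at 162 normalized counts per kb, below them, and Ciita was last at 5.59. The ratio of the highest to the lowest liver was 1.70 to 2.85 for the class I chains, B2m and the transporters, and 5.17 to 8.30 for the class II genes and Ciita. Wild type 4 was the lowest liver for H2-Aa, H2-Ab1, H2-Eb1, Cd74 and Ciita.

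H2-K1 (ENSMUSG00000061232) is on GRCm38 chromosome 17 at 33996017 to 34000347 and encodes a classical class I heavy chain. It had 13952, 17556, 14558 and 12009 normalized counts in Ncoa5+/-Tip30+/- livers and 20462, 14926, 14655 and 16693 in Ncoa5+/- livers, against 10840, 11168, 11782 and 11719 in Tip30+/- livers and 13054, 12617, 10668 and 10315 in wild-type livers. Of the 8 livers with the Ncoa5 deletion, 7 lay above all 8 without it, and Ncoa5+/-Tip30+/- 4 did not. H2-K1 rose with the Ncoa5 deletion by 0.43 ± 0.09 (log2, SE, 8 livers against 8, limma adjusted p = 0.0114). Against wild type the log2 difference was 0.31 ± 0.13 in Ncoa5+/-Tip30+/- livers (adjusted p = 0.176), 0.51 ± 0.13 in Ncoa5+/- livers (adjusted p = 0.100) and -0.03 ± 0.13 in Tip30+/- livers (95% confidence interval -0.30 to 0.25).

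H2-D1 (ENSMUSG00000073411, chromosome 17, 35262730 to 35267499) encodes the other classical heavy chain. It stood at 21123, 26791, 21935 and 17913 normalized counts in Ncoa5+/-Tip30+/- livers and 30622, 22909, 24137 and 25094 in Ncoa5+/- livers, against 16962, 17259, 17916 and 19004 in Tip30+/- livers and 19291, 18883, 16168 and 16282 in wild-type livers. As with H2-K1, Ncoa5+/- 1 was the highest liver, and Ncoa5+/-Tip30+/- 4 fell within the range of the livers without the deletion. H2-D1 rose with the Ncoa5 deletion by 0.41 ± 0.09 (adjusted p = 0.0110). The log2 ratio of H2-K1 to H2-D1 kept between -0.72 and -0.56 in all 16 livers. These genes are close relatives within the class I family, and the split of reads among its members is uncertain. The haplotype of the mice is not given, and its part in these counts was not tested.

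B2m (ENSMUSG00000060802, chromosome 2, 122147686 to 122153083), the light chain, lies outside the MHC. It had 30687, 38797, 29421 and 31603 normalized counts in Ncoa5+/-Tip30+/- livers and 38055, 29196, 35119 and 39592 in Ncoa5+/- livers, against 27215, 28087, 27934 and 29683 in Tip30+/- livers and 25957, 21925, 24608 and 28536 in wild-type livers. Every liver with the Ncoa5 deletion exceeded every wild-type liver, while 2 of them, Ncoa5+/- 2 and Ncoa5+/-Tip30+/- 3, fell within the Tip30+/- range. B2m rose with the Ncoa5 deletion by 0.34 ± 0.09 on the log2 scale (adjusted p = 0.0236).

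**Figure D1:**
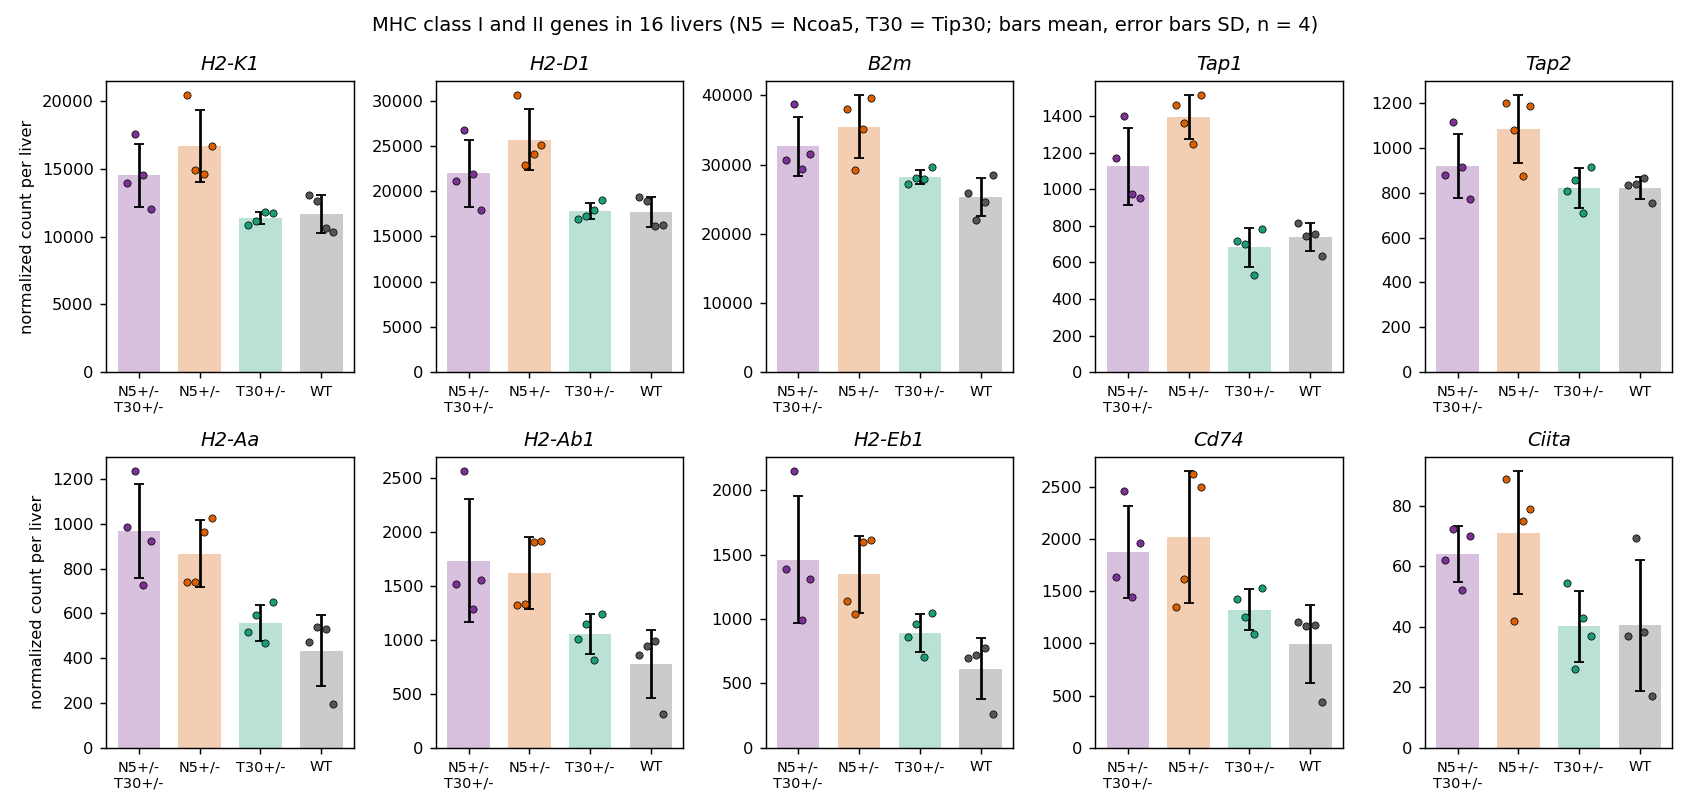
Normalized counts (vertical axes, from 0) of the 10 genes in each liver by genotype, N5 standing for Ncoa5 and T30 for Tip30. Points are livers, bars are group means and error bars are SD over 4 mice. For Tap1, H2-Aa and H2-Ab1 all points of the 2 groups with the Ncoa5 deletion lie above all points of the 2 groups without it, and wild type 4 is the low point in the class II panels.

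Tap1 (ENSMUSG00000037321, chromosome 17, 34187553 to 34197225) encodes the first subunit of the peptide transporter and changed most clearly. It had 1171, 1404, 976 and 952 normalized counts in Ncoa5+/-Tip30+/- livers and 1460, 1362, 1247 and 1517 in Ncoa5+/- livers, against 715, 699, 532 and 781 in Tip30+/- livers and 818, 746, 755 and 633 in wild-type livers. All 8 livers with the Ncoa5 deletion were above all 8 without it, and 0.786% of tested genes were separated in this way. Tap1 rose by 0.82 ± 0.10 with the Ncoa5 deletion (log2, limma adjusted p = 0.0001). It also rose against wild type alone, by 0.60 ± 0.14 in Ncoa5+/-Tip30+/- livers (adjusted p = 0.0299) and by 0.92 ± 0.14 in Ncoa5+/- livers (adjusted p = 0.0025). In Tip30+/- livers the log2 difference from wild type was -0.12 ± 0.14 (95% confidence interval -0.41 to 0.17). Tap1 shares 212 exon bases with Psmb9 on the opposite strand, and no strand marking is stated, so reads of that stretch could come from either gene.

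Tap2 (ENSMUSG00000024339, chromosome 17, 34203527 to 34216321), the second subunit, moved less. It had 881, 1115, 917 and 773 normalized counts in Ncoa5+/-Tip30+/- livers and 1203, 1080, 873 and 1186 in Ncoa5+/- livers, against 807, 857, 709 and 914 in Tip30+/- livers and 837, 840, 864 and 753 in wild-type livers. Only 5 of the 8 livers with the Ncoa5 deletion exceeded all 8 without it. The log2 difference with the Ncoa5 deletion was 0.27 ± 0.09 and did not pass (adjusted p = 0.0647). The log2 ratio of Tap1 to Tap2 was 0.09 to 0.41 in Ncoa5+/-Tip30+/- livers and 0.28 to 0.51 in Ncoa5+/- livers, against -0.41 to -0.17 in Tip30+/- livers and -0.25 to -0.03 in wild-type livers. The ratio was thus above 0 in every liver with the Ncoa5 deletion and below 0 in every liver without it. Tap2 shares 698 exon bases with the genes Gm15821 and Gm20496 on the opposite strand.

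Among the class II chains, H2-Aa (ENSMUSG00000036594, chromosome 17, 34282744 to 34287823), the alpha chain of I-A, had 985, 1237, 725 and 922 normalized counts in Ncoa5+/-Tip30+/- livers and 741, 738, 964 and 1024 in Ncoa5+/- livers, against 515, 594, 470 and 650 in Tip30+/- livers and 473, 537, 529 and 197 in wild-type livers. The 8 livers with the Ncoa5 deletion did not overlap the 8 without it. H2-Aa rose with the Ncoa5 deletion by 0.93 ± 0.19 (log2, adjusted p = 0.0088), and by 1.23 ± 0.26 in Ncoa5+/-Tip30+/- against wild-type livers (adjusted p = 0.0254). In Ncoa5+/- livers the difference from wild type was 1.09 ± 0.26 and did not pass (adjusted p = 0.0934).

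H2-Ab1 (ENSMUSG00000073421, chromosome 17, 34257689 to 34269419) is the beta chain of I-A. It stood at 1517, 2570, 1290 and 1559 normalized counts in Ncoa5+/-Tip30+/- livers and 1322, 1333, 1904 and 1919 in Ncoa5+/- livers, against 1010, 1149, 812 and 1242 in Tip30+/- livers and 864, 942, 993 and 310 in wild-type livers. Again the livers with and without the Ncoa5 deletion did not overlap. H2-Ab1 rose by 0.93 ± 0.23 with the Ncoa5 deletion (adjusted p = 0.0266), and the log2 differences from wild type were 1.24 ± 0.32 in Ncoa5+/-Tip30+/- livers (adjusted p = 0.0556) and 1.17 ± 0.32 in Ncoa5+/- livers (adjusted p = 0.160).

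H2-Eb1 (ENSMUSG00000060586, chromosome 17, 34305867 to 34316674) is the beta chain of I-E. It had 1385, 2153, 995 and 1314 normalized counts in Ncoa5+/-Tip30+/- livers and 1140, 1043, 1596 and 1616 in Ncoa5+/- livers, against 860, 962, 706 and 1043 in Tip30+/- livers and 698, 718, 778 and 266 in wild-type livers. Every liver with the Ncoa5 deletion lay above every wild-type liver, and 2 of them did not exceed the highest Tip30+/- liver. H2-Eb1 rose by 0.94 ± 0.22 with the Ncoa5 deletion (log2, adjusted p = 0.0201) and by 1.31 ± 0.31 in Ncoa5+/-Tip30+/- against wild-type livers (adjusted p = 0.0386).

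The alpha partner of H2-Eb1 is annotated as the polymorphic pseudogene H2-Ea-ps in the reference genome, whose strain, C57BL/6J, is known to lack the promoter of this gene. H2-Ea-ps nevertheless had reads in all 16 livers. It was at 587, 830, 361 and 657 normalized counts in Ncoa5+/-Tip30+/- livers and 482, 433, 713 and 697 in Ncoa5+/- livers, against 372, 405, 299 and 448 in Tip30+/- livers and 301, 322, 278 and 151 in wild-type livers. It thus followed the other class II chains, with a rise of 0.90 ± 0.19 (log2) with the Ncoa5 deletion (adjusted p = 0.0110).

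Cd74 (ENSMUSG00000024610, chromosome 18, 60803848 to 60812652), the invariant chain, had 1637, 2463, 1447 and 1957 normalized counts in Ncoa5+/-Tip30+/- livers and 1345, 1612, 2623 and 2496 in Ncoa5+/- livers, against 1422, 1251, 1092 and 1530 in Tip30+/- livers and 1205, 1168, 1180 and 438 in wild-type livers. Both groups with the Ncoa5 deletion were above all wild-type livers, and both overlapped the Tip30+/- livers. Cd74 rose by 0.78 ± 0.22 with the Ncoa5 deletion (log2, adjusted p = 0.0428). The pass was narrow and was lost in 13 of 28 alternative settings, with adjusted p values from 0.0028 to 0.328. The settings that lost it include leaving out any of 10 of the 16 livers (Ncoa5+/-Tip30+/- 1, 2 or 4, Ncoa5+/- 2, 3 or 4, or any Tip30+/- liver), with adjusted p values from 0.0521 to 0.0944.

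Wild type 4 was low in class II throughout, at 197 normalized counts of H2-Aa, 310 of H2-Ab1, 266 of H2-Eb1 and 438 of Cd74. It was also the lowest liver for the Kupffer cell gene Clec4f, at 1364 normalized counts, against 2571 to 5688 in the others. Without it the log2 rise with the Ncoa5 deletion was 0.76 for H2-Aa (adjusted p = 0.0014), 0.73 for H2-Ab1 (adjusted p = 0.0102), 0.76 for H2-Eb1 (adjusted p = 0.0102) and 0.60 for Cd74 (adjusted p = 0.0350). Against wild type, leaving it out brought the log2 difference of Cd74 to 0.63 in Ncoa5+/-Tip30+/- livers and 0.71 in Ncoa5+/- livers, and that of H2-Ab1 to 0.77 in Ncoa5+/- livers.

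Ciita (ENSMUSG00000022504, chromosome 16, 10480059 to 10528418) was measured from few reads, 20 to 81 per liver. It had 61.9, 72.4, 52.0 and 70.1 normalized counts in Ncoa5+/-Tip30+/- livers and 89.0, 41.8, 75.0 and 78.9 in Ncoa5+/- livers, against 54.6, 26.1, 42.8 and 36.9 in Tip30+/- livers and 36.8, 69.4, 38.4 and 17.2 in wild-type livers. Only 5 of the 8 livers with the Ncoa5 deletion exceeded all 8 without it, wild type 2 being high. The log2 difference with the Ncoa5 deletion, 0.80 ± 0.24, did not pass (adjusted p = 0.0511). It passed without Ncoa5+/- 2 (adjusted p = 0.0366), without Tip30+/- 1 (adjusted p = 0.0494) or without wild type 2 (adjusted p = 0.0169). Likewise Tap2 passed without Ncoa5+/-Tip30+/- 4 (adjusted p = 0.0325) or without Ncoa5+/- 3 (adjusted p = 0.0260).

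**Figure D2:**
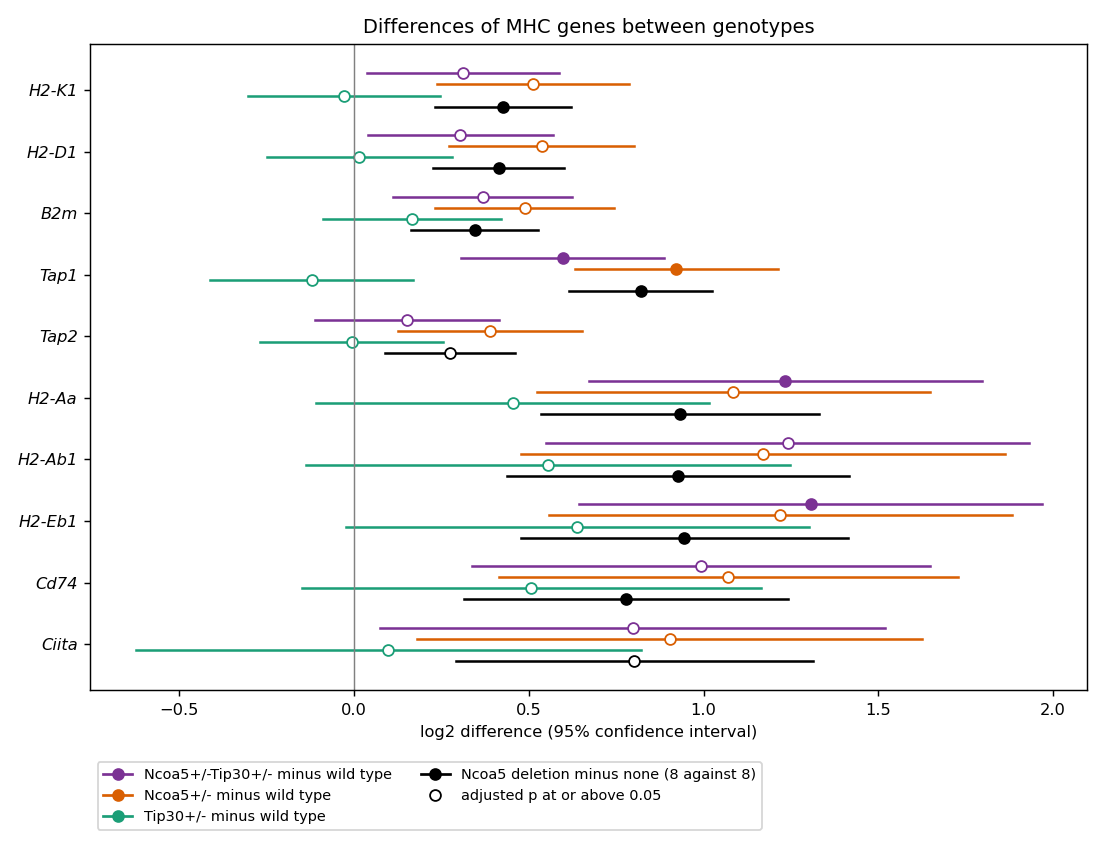
Fitted log2 differences of the 10 genes (horizontal axis) with 95% confidence intervals for Ncoa5+/-Tip30+/-, Ncoa5+/- and Tip30+/- livers, each minus wild type (4 against 4), and for livers with the Ncoa5 deletion minus those without (8 against 8). Filled points passed at an adjusted p below 0.05. The Tip30+/- intervals all span 0, and the 8 filled points of the comparison of 8 against 8 are the members that rose with the Ncoa5 deletion.

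Counted together for the Ncoa5 deletion, 8 of 10 members were called higher, where 3.94% of the 15263 tested genes were, and 0 were called lower, where 3.95% were. The median log2 difference was 0.79 over the members and -0.01 over all tested genes. The 8 became 5 without Ncoa5+/-Tip30+/- 2, where B2m (adjusted p = 0.0504), H2-Ab1 (adjusted p = 0.0573) and Cd74 (adjusted p = 0.0944) were lost. In that fit the genes called higher over the whole set fell as well, from 602 to 347. H2-Ab1 was also lost without Ncoa5+/- 4 (adjusted p = 0.0559) or without Tip30+/- 3 (adjusted p = 0.0532). Without the 4 livers low in Zhx2, 4 members were called, H2-K1, H2-D1, Tap1 and H2-Aa, with 405 of all genes called higher, and the log2 differences of all 10 lay between 0.21 and 1.10. The labels also carry an animal number for each mouse. Within the 9 livers of mice numbered under 4300, 8 members were called, with log2 differences from 0.39 to 0.92, and 714 of all 15263 genes were called higher. Within the 7 livers of mice numbered 4300 and over, 0 were called, with log2 differences from 0.11 to 1.12, and 30 of all genes were called higher.

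Against wild type alone the calls were fewer. In Ncoa5+/-Tip30+/- livers 3 members were called higher (Tap1, H2-Aa and H2-Eb1), against 1.4% of tested genes, with a median log2 difference of 0.70 over the members and -0.01 over all tested genes. For 6 members (B2m, Tap1, H2-Aa, H2-Ab1, H2-Eb1 and Cd74) all 4 Ncoa5+/-Tip30+/- livers lay above all wild-type livers, against 4.7% of tested genes. The count of 3 fell to 0 without Ncoa5+/-Tip30+/- 2 or without wild type 1, and to 1 without Ncoa5+/-Tip30+/- 1, without wild type 2 or without wild type 4. All genes called higher fell from 213 to 66 and 85 in the fits with 0, and to 188, 156 and 106 in those with 1. Leaving out Tip30+/- 1 or Tip30+/- 2 ended the call of H2-Eb1 (adjusted p = 0.0533 each). Without the 4 livers low in Zhx2 the count was 0, with 104 of all genes called higher.

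In Ncoa5+/- livers 1 member, Tap1, was called higher against wild type, against 0.531% of tested genes. For 9 members, all but Ciita, all 4 Ncoa5+/- livers lay above all 4 wild-type livers, against 3.25% of tested genes. The median log2 difference was 0.91 over the members and -0.01 over all tested genes. H2-D1 passed as well without Ncoa5+/-Tip30+/- 2 (adjusted p = 0.0388) or without Ncoa5+/-Tip30+/- 4 (adjusted p = 0.0482), and B2m without Ncoa5+/- 2 (adjusted p = 0.0476). DESeq2 on the recovered reads called 8 members in this comparison and 6 in Ncoa5+/-Tip30+/- livers. It also called more of all genes higher, 209 and 539, against 81 and 213 by limma. Without the 4 livers low in Zhx2, which include 2 of the 4 Ncoa5+/- and 2 of the 4 wild-type livers, limma called 0 members. It called 26 of all genes higher there.

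In Tip30+/- livers 0 members were called against wild type by limma, edgeR or DESeq2, against 0.0131% of tested genes by limma. An unadjusted limma p below 0.05 was seen for 0 members and for 7.34% of tested genes. The median log2 difference was 0.13 over the members and 0.01 over all tested genes. The class II chains and Cd74 had the largest fitted differences, with H2-Eb1 at 0.64 ± 0.31 (95% confidence interval -0.02 to 1.30), which became 0.27 without wild type 4. Over the 8 livers with the Tip30 deletion and the 8 without it, 0 members were called by any of the 3 tools, against 0.131% of tested genes, and Tap1 had the only unadjusted p below 0.05, against 11.8% of tested genes, at a log2 difference of -0.22 ± 0.10. All 3 comparisons with wild type share the same 4 wild-type livers.

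The interaction, which asks whether the double heterozygote differs from the sum of both single deletions on the log2 scale, called 0 members and 0 genes (0%) by limma. No member had an unadjusted p below 0.05, against 650 of all genes (4.26%), and edgeR and DESeq2 called 0 members. The fitted values were below 0 for all 10 members, with a median of -0.27, against -0.03 over all tested genes. This direction was not stable, since 7 of the 10 were above 0 within mice numbered under 4300 (Ciita, Cd74, H2-Aa, H2-Ab1, H2-Eb1, Tap1 and H2-K1, at 0.03 to 0.52), as were Ciita, at 0.14, and H2-Aa, at 0.04, without wild type 4. With the 4 livers low in Zhx2 left out, 0 members were called for the interaction, for the Tip30 deletion and in Tip30+/- against wild-type livers. For H2-K1 the interaction was -0.17 (95% confidence interval -0.56 to 0.22) and for H2-Ab1 -0.48 (95% confidence interval -1.46 to 0.49). For all 10 genes the Tip30+/- and wild-type ranges overlapped, where 2% of tested genes were higher and 2.44% lower in Tip30+/- livers without overlap.

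The other genes of the pathway were read for the Ncoa5 deletion from lists that were counted in full. Of all 15263 tested genes, 3.94% rose and 3.95% fell in this comparison. Of 13 nonclassical class I genes, 8 rose and 0 fell, with a median log2 difference of 0.43. H2-Q7 led with 1041, 1430, 991 and 821 normalized counts in Ncoa5+/-Tip30+/- livers and 936, 1226, 785 and 871 in Ncoa5+/- livers, against 314, 385, 501 and 530 in Tip30+/- livers and 554, 588, 423 and 439 in wild-type livers. The livers with and without the Ncoa5 deletion did not overlap, and H2-Q7 rose by 1.12 ± 0.14 (adjusted p = 0.0001). H2-Q6 rose by 0.79, H2-T10 by 0.58, H2-Q4 by 0.54, H2-T24 by 0.51, H2-M3 by 0.47, H2-T23 by 0.43 and H2-T22 by 0.39. H2-T23, known as Qa-1, is the ligand of the NK cell receptor NKG2A. H2-Q10, the secreted class I chain that the liver makes in large amounts, had a log2 difference of 0.22 (adjusted p = 0.157). The H2-Q and H2-T genes belong to multigene families, so counts of single genes among them are uncertain.

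Of 5 immunoproteasome genes, whose subunits favour peptides that fit class I, 3 rose and 0 fell. Psmb8 rose by 0.59 ± 0.12 (adjusted p = 0.0075) and Psmb9 by 0.55 ± 0.12 (adjusted p = 0.0139), and the activator subunit Psme1 rose by 0.30 ± 0.09 (adjusted p = 0.0477). Psmb8, Psmb9, Tap1 and Tap2 are neighbours in the MHC. Of 6 peptide loading genes 0 rose and 1 fell, with a median log2 difference of -0.03. Erap1, which trims peptides in the endoplasmic reticulum, fell by 0.37 ± 0.09 (log2, adjusted p = 0.0253). Tapbp, the tapasin that joins class I to the transporter, had a log2 difference of 0.10 (adjusted p = 0.401).

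Of the 10 genes listed for class II loading and second chains, 7 could be tested, 4 rose and 0 fell, with a median log2 difference of 0.76. H2-DMa, the alpha chain of the peptide exchange factor H2-DM, rose by 0.83 ± 0.20 (adjusted p = 0.0229) and H2-DMb1, its beta chain, by 0.84 ± 0.18 (adjusted p = 0.0106). Ifi30, the lysosomal thiol reductase, rose by 0.36 ± 0.10 (adjusted p = 0.0353), and H2-Ea-ps was the other. Ctss, the protease that removes Cd74, had a log2 difference of 0.49 (adjusted p = 0.0745). H2-Oa and H2-Eb2 were below the minimum level, and the symbol H2-Ea was not matched in the table.

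Of 8 transactivator genes 1 rose, with a median log2 difference of -0.02. Nlrc5 had 564, 752, 582 and 710 normalized counts in Ncoa5+/-Tip30+/- livers and 481, 607, 484 and 581 in Ncoa5+/- livers, against 331, 357, 306 and 443 in Tip30+/- livers and 413, 482, 402 and 386 in wild-type livers. Ncoa5+/- 1, at 481, was the only liver with the deletion that did not exceed all without it, wild type 2 being at 482. Nlrc5 rose by 0.61 ± 0.10 with the Ncoa5 deletion (adjusted p = 0.0012) and by 0.63 ± 0.13 in Ncoa5+/-Tip30+/- against wild-type livers (adjusted p = 0.0226). The RFX genes Rfx5, Rfxap and Rfxank had log2 differences of 0.04, -0.07 and 0.11, and Nfyb and Nfya of 0.17 and -0.18 (adjusted p = 0.191 and 0.234).

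Among genes of interferon-gamma signalling, the transcription factors Irf1 and Irf8 had log2 differences of -0.09 (adjusted p = 0.698) and 0.32 (adjusted p = 0.120). Ifng averaged 0.707 normalized counts and was not tested. Of 4 costimulation and turnover genes 0 passed, and the smallest p values belonged to Cd86, at a log2 difference of 0.66 (adjusted p = 0.0948), and to March8, at -0.26 (adjusted p = 0.0629). Among these pathway genes, the passes of H2-M3, Psme1 and Ifi30 were the least stable, being lost in 17, 16 and 14 of 28 alternative settings.

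**Figure D3:**
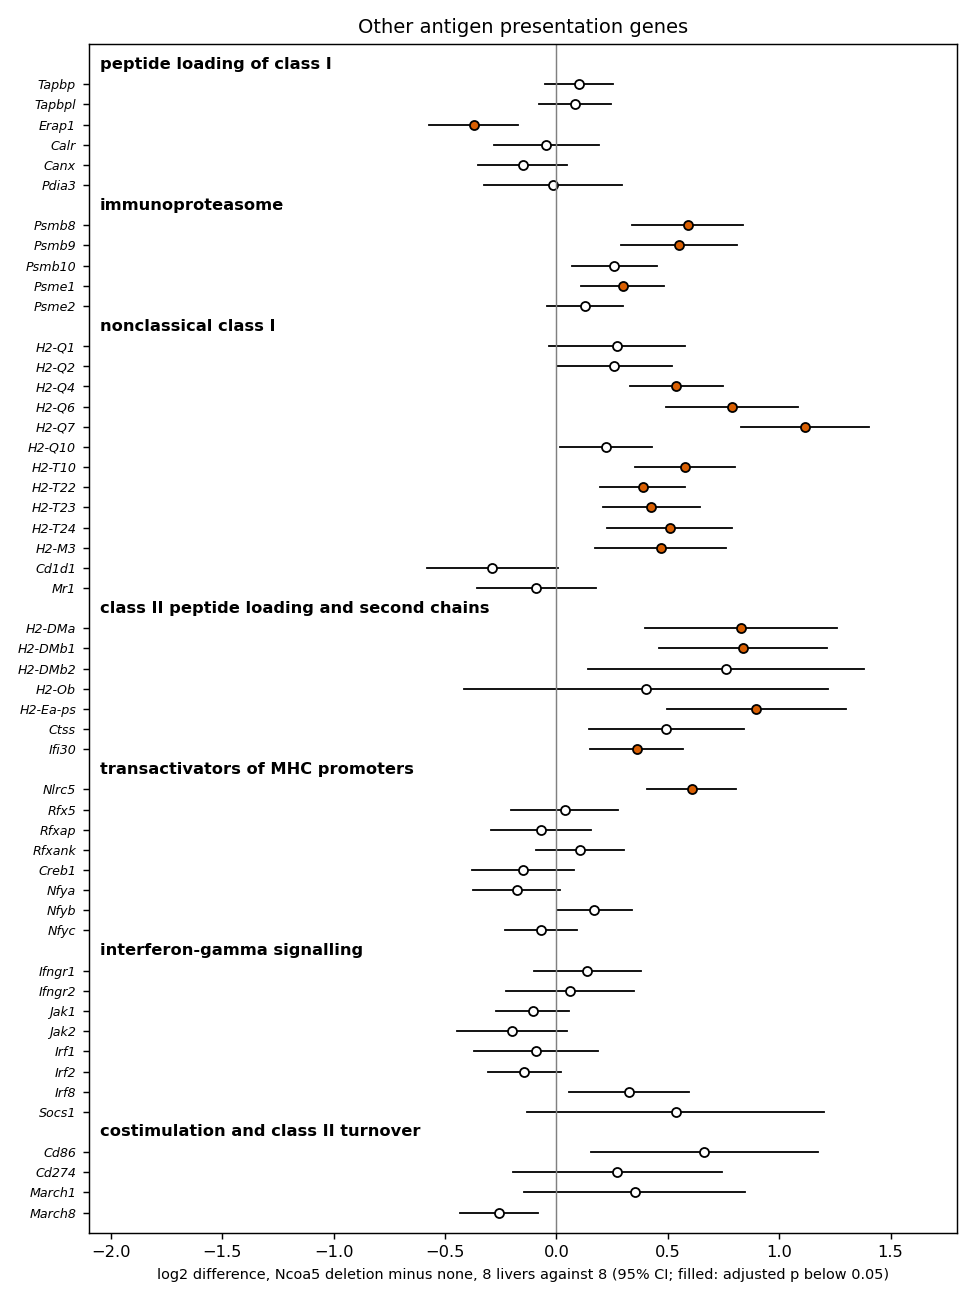
Fitted log2 difference (horizontal axis) of the other antigen presentation genes between the 8 livers with the Ncoa5 deletion and the 8 without, with 95% confidence intervals, grouped by list. Filled points passed at an adjusted p below 0.05. Nonclassical class I and class II loading genes lie mostly to the right of 0, while the peptide loading genes other than Erap1 and the transactivators other than Nlrc5 lie between -0.18 and 0.17.

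Markers of cells that could carry these molecules were read in the same livers. Since 3.94% of all tested genes rose with the Ncoa5 deletion, 0 passes in a list of a few genes tells little about its cells. Of 6 tested T and NK cell markers, 4 rose with the Ncoa5 deletion, Cd8a by 3.15, Trac by 1.47, Nkg7 by 1.41 and Cd3e by 1.25 (log2). The pass of Cd3e was lost without any of 5 single livers, Ncoa5+/-Tip30+/- 2 or 3, Ncoa5+/- 2 or 4, or wild type 4 (limma adjusted p = 0.0508 to 0.0632), and in 8 of 27 alternative settings in all. Cd8a, the coreceptor that binds class I, was at 29.9 to 83.7 normalized counts in Ncoa5+/-Tip30+/- livers and 24.8 to 84.5 in Ncoa5+/- livers, against 2.56 to 7.03 in Tip30+/- and 0.860 to 10.5 in wild-type livers. The summed level of the 8 T and NK markers was 112 to 246 normalized counts in Ncoa5+/-Tip30+/- livers and 157 to 257 in Ncoa5+/- livers, against 59.4 to 93.3 in Tip30+/- and 43.0 to 95.7 in wild-type livers. It was higher in each liver with the Ncoa5 deletion than in every one without.

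Of 5 tested dendritic cell markers 2 rose, Itgax by 1.54 ± 0.26 (adjusted p = 0.0019) and Clec9a by 0.66 ± 0.19 (adjusted p = 0.0446). The pass of Clec9a was lost in 16 of 28 alternative settings. The summed level of the 8 dendritic cell markers was 279 to 348 normalized counts in Ncoa5+/-Tip30+/- livers and 256 to 340 in Ncoa5+/- livers, against 167 to 256 in Tip30+/- and 171 to 239 in wild-type livers. Here too the groups with and without the Ncoa5 deletion did not overlap, by a margin of under 1 normalized count. Most of this sum came from Zbtb46, which averaged 125 normalized counts and did not pass, and from Clec9a, at 58.2.

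Of 8 Kupffer cell and macrophage markers 0 passed, and 7 of the 8 had values above 0. Clec4f had a log2 difference of 0.45 (adjusted p = 0.157) and C1qa of 0.53 (adjusted p = 0.0677). Their summed level was 6626 to 13084 normalized counts in Ncoa5+/-Tip30+/- livers and 8221 to 16306 in Ncoa5+/- livers, against 7525 to 9761 in Tip30+/- and 3796 to 9411 in wild-type livers, so that these groups overlapped. Of 6 B cell markers 0 passed, all 6 had values above 0, and the median log2 difference was 0.37. Their summed level was 107 to 322 normalized counts in Ncoa5+/-Tip30+/- livers and 94.7 to 163 in Ncoa5+/- livers, against 57.3 to 191 in Tip30+/- and 32.7 to 278 in wild-type livers. Of the 5 sinusoidal endothelium, 4 cholangiocyte and 2 tested neutrophil markers 0 passed. Col1a1 was the only 1 of 4 stellate cell markers that passed, with a rise of 0.97. The leukocyte marker Ptprc had a log2 difference of 0.57 (adjusted p = 0.0695). At most 2 of the 8 T and NK cell markers and 1 of the 6 B cell markers were at 0 in a liver, and no Kupffer cell or dendritic cell marker was. The part of these cells in the class I and class II values was not tested.

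Members were also compared liver by liver after subtracting the mean of each genotype, so that differences between genotypes do not enter. The class II set, H2-Aa, H2-Ab1, H2-Eb1 and Cd74, varied almost as one, with Pearson r of 0.93 to 0.99 over its 6 pairs. The class I set, H2-K1, H2-D1, B2m, Tap1 and Tap2, was looser, with r of 0.34 to 0.97 over 10 pairs. The class II set also spread more between livers, with wild type 4 as its lowest liver. The highest liver was 5.99 to 8.30 times the lowest there, against 1.70 to 2.85 in the class I set. The r values of these sets were thus measured at unlike spread. Between class I and class II members r was -0.02 to 0.67 over 20 pairs, with a median of 0.33. These pairs share libraries, depth and scaling, and no test was made over the whole grid.

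**Figure D4:**
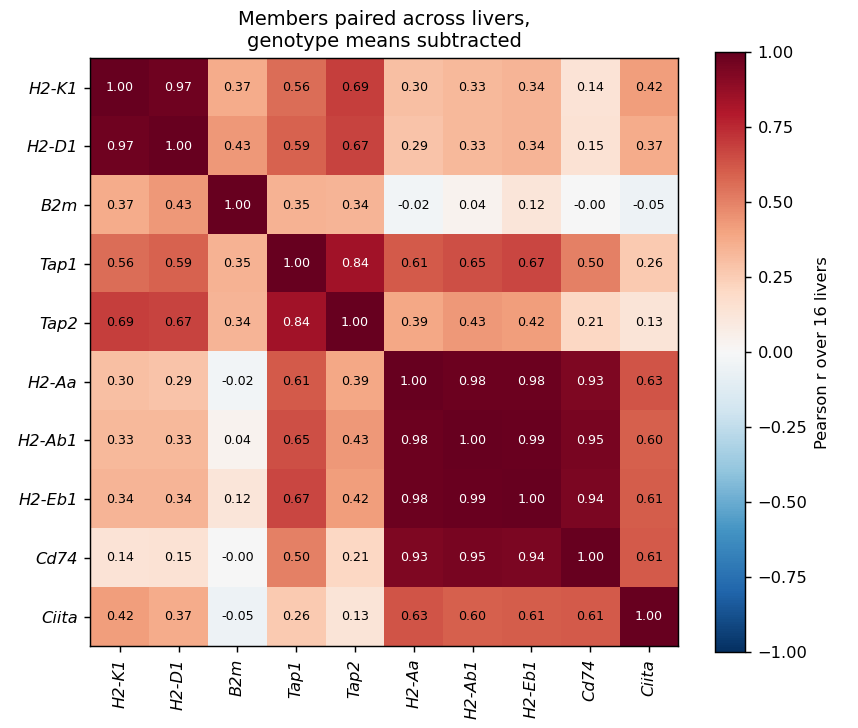
Pearson r (colour and printed value) between each pair of the 10 genes over 16 livers on log2(normalized count + 1), with genotype means subtracted. The block of H2-Aa, H2-Ab1, H2-Eb1 and Cd74 holds values of 0.93 or more off the diagonal, and B2m has values of -0.02 to 0.12 with these 4 genes.

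Of 12 pairs of genes chosen for testing, H2-K1 and H2-D1 had r = 0.97 and rho = 0.96 after centring (permutation p adjusted over the 12 pairs 0.0006 for each, raw p = 0.0001), and r = 0.95 without the 2 livers farthest from the median. Both genes were higher in each liver low in Zhx2 than in the other livers of its genotype. For H2-K1 this was 20462 and 16693 against 14926 and 14655 normalized counts in Ncoa5+/- livers. In wild-type livers it was 13054 and 12617 against 10668 and 10315. Centring does not remove this split, and its part, or that of reads shared by these related genes, was not tested. H2-K1 and H2-Ab1 had r = 0.64 and rho = 0.71 as measured (adjusted permutation p = 0.0092 and 0.0051). After centring this relation had r = 0.33 and rho = 0.22 (adjusted permutation p = 0.356 and 0.570, raw p = 0.296 and 0.475), so it was not detected within genotypes.

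Within the class II set, H2-Ab1 had r = 0.98 with H2-Aa and 0.95 with Cd74 (adjusted permutation p = 0.0006 and 0.0016), and these were 0.96 and 0.91 without the farthest livers. H2-K1 with B2m, at r = 0.37, and with Tap1, at r = 0.56, did not pass (adjusted permutation p = 0.356 and 0.0602), nor did the B cell gene Cd79b with H2-Ab1, at r = 0.67 (adjusted permutation p = 0.143).

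Clec4f, the Kupffer cell gene, and H2-Ab1 had r = 0.80 and rho = 0.76 after centring (adjusted permutation p = 0.0472 and 0.0316, raw p = 0.0197 and 0.0132), and r = 0.62 without wild type 4 and Ncoa5+/- 3. Wild type 4 was low in markers of other cell types as well, and the part of any cell type in this relation was not tested. Itgax and H2-Ab1 had r = -0.11 and rho = -0.12 after centring (adjusted permutation p = 0.688 and 0.675, raw p = 0.631 and 0.619). Itgax averaged 23.1 normalized counts and Clec4f 3442, so these relations were measured at unlike depth and cannot be set against each other. Nlrc5 and H2-K1 had r = 0.11 and rho = 0.06 after centring (adjusted permutation p = 0.715 and 0.842, the same as raw). Ciita and H2-Ab1 had r = 0.60 and rho = 0.40 (adjusted permutation p = 0.159 and 0.225, raw p = 0.106 and 0.150), and r = 0.19 without wild type 4 and wild type 2, so this relation rests on those livers.

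**Figure D5:**
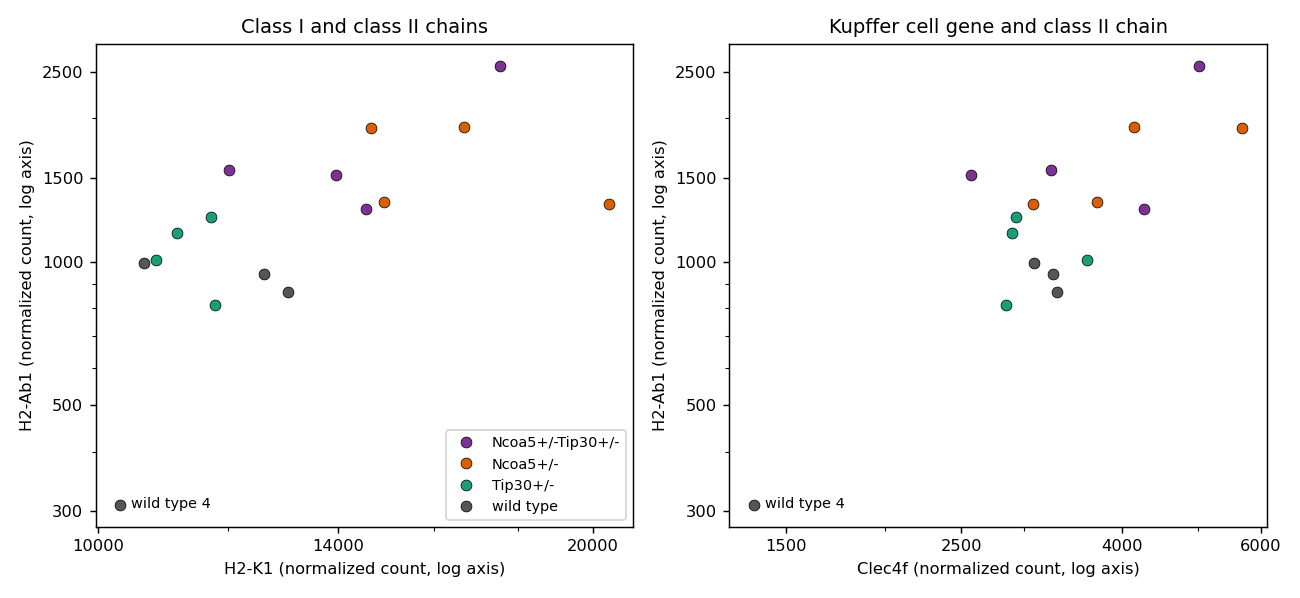
H2-Ab1 (vertical axis) against H2-K1 and against Clec4f (horizontal axes) in the 16 livers, in normalized counts on log axes, coloured by genotype. Wild type 4 is the lowest point on both panels, with 310 normalized counts of H2-Ab1 and 1364 of Clec4f, and livers with the Ncoa5 deletion all lie above those without it on the vertical axis.

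Over the 11880 genes averaging 50 or more normalized counts, the genes whose centred pattern was most like H2-Ab1 were H2-Eb1 (r = 0.99), H2-Aa (0.98), H2-DMa (0.95), Cd74 (0.95), Samhd1 (0.91), H2-Ea-ps (0.90), Themis2 (0.90) and Snapc1 (0.90), by Pearson r over 16 livers. Of these 8 genes, 5 encode or stand for class II molecules or their helpers. Wild type 4 was the lowest liver for H2-Ab1, and its part in this list was not tested. Those most like H2-K1 were H2-D1 (0.97), Zswim9 (0.90), Btg2 (0.90), Pla2g16 (0.90), Tmem176a (0.89), Rpl23a-ps3 (0.88), Gpi1 (0.88) and Gm4617 (0.87), and H2-D1 was the only class I gene among these 8. The centred pattern of H2-K1 includes its higher level in the livers low in Zhx2, and the part of this in the list was not tested.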

How the data were processed

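Liver RNA from 16 mice was sequenced by the authors after oligo(dT) selection. The deposited values are signal values, that is read counts scaled between libraries by the size factors of DESeq2 1.28.1, after trimming with Trimmomatic 0.36 and alignment with STAR 2.6.0c to GRCm38, per the submitters' processing notes. The gene counter, the annotation and any strand marking were not given in the labels or notes used here. Low values of each library were whole multiples of 1 step, and reads recovered with it were whole (100% of values, tolerance 0.0001).

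The test was limma 3.58.1 (trend, robust) on log2(value + 1), fitted to the 16 libraries with a mean for each of the 4 groups. The 2-sided p was adjusted by Benjamini and Hochberg's method over the 15263 genes with a mean of at least 10 within each comparison. An adjusted p under 0.05 was a pass, and a log2 difference on this scale understates the change of low genes. The Ncoa5 and Tip30 comparisons set the 8 livers with a deletion against the 8 without. Correlations used 100000 resamples, within genotype for centred values. Alternatives were edgeR 4.0.16 and DESeq2 1.42.0 on the recovered reads, other pseudocounts, filters, scaling and moderation, mouse number as a covariate, the 2 groups alone and each liver left out. Chosen after seeing the data were the fits without the 4 livers low in Zhx2 and within ranges of mouse numbers. Genes of lists were named where they passed in any comparison, or else the 2 of smallest p, with a few others chosen after their values were seen. Members and lists were chosen with earlier results of these data known. The limma step was checked on simulated data. Mice of a group are separate animals, numbered in accession order, and positions come from GENCODE M21. A gene of the lists is not reported here.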

Additional observations from a re-analysis of the deposited data

Results flagged for a closer look

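In 44 groups of 4 livers, 2 had 1 liver set apart from the other 3 by more than Dixon's 95% limit, and chance flags about 1 in 20 groups. Both concern wild type 4 and class II genes. H2-Eb1 was at 266 normalized counts in wild type 4 and at 698 to 778 in the other wild-type livers. Cd74 was at 438 normalized counts in wild type 4 and at 1168 to 1205 in the other wild-type livers.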

How the results depend on the processing

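The 8 members called higher with the Ncoa5 deletion became 10 by DESeq2 and with animal number as a covariate, 8 by edgeR, 4 without the livers low in Zhx2, and 0 in mice numbered 4300 and over. The 1 call in Ncoa5+/- livers became 8 by DESeq2, 2 without a filter, 2 with the covariate, and 0 without the livers low in Zhx2 or within either range of animal numbers. The 3 calls in Ncoa5+/-Tip30+/- livers became 6 by DESeq2, 5 in mice numbered under 4300, and 0 with the 2 groups alone, without the livers low in Zhx2 or in mice numbered 4300 and over. Leaving out each liver in turn gave 5 to 9 calls with the Ncoa5 deletion, 1 to 2 in Ncoa5+/- livers and 0 to 4 in Ncoa5+/-Tip30+/- livers. The cause was not tested, beyond the fewer livers in some fits. Over all genes, 1205 calls with the Ncoa5 deletion became 1803 by DESeq2, 1089 by edgeR and 1937 with the covariate. They became 602 without the livers low in Zhx2, 1694 in mice numbered under 4300 and 36 in those numbered 4300 and over. Without single livers they were 610 to 1602. The 85 calls in Ncoa5+/- livers became 257 by DESeq2, 56 with the 2 groups alone, 29 without the livers low in Zhx2, 34 and 8 within the number ranges, and 45 to 90 without single livers. The 407 calls in Ncoa5+/-Tip30+/- livers became 1044 by DESeq2, 697 with the covariate, 107 with the 2 groups alone, 121 without the livers low in Zhx2, 1582 and 19 within the ranges, and 88 to 846 without single livers. The 2 calls in Tip30+/- livers became 9 by edgeR, 43 by DESeq2, 6 without the livers low in Zhx2, 557 and 0 within the ranges and 1 to 8 without single livers. The 20 calls with the Tip30 deletion became 31 by edgeR, 246 by DESeq2, 34 without a filter, 51 with the covariate, 5 without the livers low in Zhx2, 688 and 5 within the ranges and 15 to 114 without single livers.

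Signs turned only for uncalled values of Tip30+/- livers, the Tip30 deletion and the interaction. In Tip30+/- against wild-type livers, Ciita became -0.015 by edgeR, -0.0020 by DESeq2 and -0.35 under 4300, and H2-D1 became -0.0044 by edgeR, -0.020 with the covariate and -0.14 under 4300. Tap2 became 0.021 without the livers low in Zhx2 and 0.18 at 4300 and over, H2-K1 0.12 and 0.16 in the same settings, and Tap1 0.18 at 4300 and over. With the Tip30 deletion, Ciita became 0.38, H2-K1 0.038 and H2-D1 0.0081 without the livers low in Zhx2, and Ciita 0.078 and B2m -0.063 at 4300 and over. Under 4300 the interaction became 0.49 for Ciita, 0.38 for Cd74, 0.52 for H2-Aa, 0.14 for Tap1, 0.42 for H2-Eb1, 0.030 for H2-K1 and 0.45 for H2-Ab1. Without single livers the ranges were -0.25 to 0.40 for Ciita, -0.027 to 0.058 for H2-D1, -0.086 to 0.027 for H2-K1, -0.061 to 0.062 for Tap2 in Tip30+/- against wild-type livers, -0.18 to 0.15 for Ciita and -0.022 to 0.053 for B2m with the Tip30 deletion, and -0.51 to 0.14 for Ciita and -0.44 to 0.038 for H2-Aa for the interaction. No paired analysis was possible because the labels give no replicate numbers and each mouse gave 1 library. Depth limits Ciita, which had 20 to 81 reads per liver.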
